A study of Mus musculus with 6 samples.

Results

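The genes described here encode stress ligands and their receptors in the retina: the endothelins Edn1 and Edn2 with their receptors Ednra and Ednrb, the cytokine Lif with its receptor chains Lifr and Il6st (gp130), and the growth factors Fgf2, Cntf and Bdnf. They were chosen by name, as 10 of the 31053 genes in the count tables, and all 10 had at least 1 unique molecular identifier (UMI, a tag that counts an RNA molecule once). Retinas of 6 samples were dissociated at postnatal day 17 (P17), and the RNA of single cells was counted by droplet sequencing from the 3′ end. The 3 samples of the OIR group (oxygen-induced retinopathy, a mouse model of retinopathy of prematurity) came from pups that breathed 75% oxygen between P7 and P12 and room air for the following 5 days, and the 3 Ctrl samples came from mice kept in normal oxygen. The labels give P17 as the age of all 6 samples, yet also call the mice of both groups adult. Each sample pooled the retinas of 2 mice, the labels give neither strain nor sex, no transgene or deletion is named, and no sort of the cells is described. With 3 samples a group, p-values measure only the spread between these pools.

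Endothelin 2 and LIF are known from injured retinas, where stressed photoreceptors make endothelin 2 and Müller glia make LIF. Endothelins act through G protein-coupled receptors on glia and vessels. LIF and CNTF bind receptor complexes that share gp130 and activate STAT3, and FGF2 and BDNF signal through receptor tyrosine kinases that keep neurons alive.

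The files held 47631 barcodes, of which 38569 passed the filters on genes and mitochondrial counts. Both replicate 1 libraries were deeper than the rest, with a median of 3958 and 4850 UMIs per kept cell against 1449.5 to 2354 in the other 4, and held smaller shares of rod-like cells. Xist RNA, which marks female cells, was high in Ctrl replicates 2 and 3 only. The labels call the tissue retinal endothelial cells, yet 24916 of the kept cells were rod-like and 198 were VEC-like (vascular endothelial). Each cluster took its name from its marker genes, and "-like" is written because no other measurement gives the cell type. This gave 11 types, and 8 of them had at least 10 cells in every sample and were tested. Any pair of libraries shared 3 to 17 barcodes among kept cells.

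The bases before the start sites of Ednrb and Bdnf are shown because these were the genes whose RNA passed the test between OIR and Ctrl. Ednrb lies at chr14:103814625-103844402 and Bdnf at chr2:109674700-109727007 in GRCm38 (GENCODE vM21). The windows are the 250 bases before the first start site that RefSeq lists for each gene in build GRCm38.p6, read 5′ to 3′ on the strand of the gene. Capitals mark matches on either strand to ACGTG (the core of a hypoxia response element), TTCNNNGAA (a STAT site) or TAATCC (a site of the photoreceptor factor CRX). No marked stretch overlapped another, and neither window holds an exon of its gene, although a longer GENCODE transcript of Ednrb starts upstream and makes its window intronic.
Ednrb, chr14:103843702-103843951, minus strand: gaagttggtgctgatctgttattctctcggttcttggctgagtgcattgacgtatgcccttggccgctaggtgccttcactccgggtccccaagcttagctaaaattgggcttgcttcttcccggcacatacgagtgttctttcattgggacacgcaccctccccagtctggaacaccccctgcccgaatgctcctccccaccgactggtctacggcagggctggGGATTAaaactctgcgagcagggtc
Bdnf, chr2:109674450-109674699, plus strand: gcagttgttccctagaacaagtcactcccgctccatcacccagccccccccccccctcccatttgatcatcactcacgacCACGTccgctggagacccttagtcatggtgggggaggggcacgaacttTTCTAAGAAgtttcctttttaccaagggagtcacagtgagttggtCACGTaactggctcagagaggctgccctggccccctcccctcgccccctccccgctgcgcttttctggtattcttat
The Ednrb window held 1 match, to the CRX letters. The Bdnf window held 2 matches to ACGTG and 1 to the STAT letters, and Bdnf has 7 start sites in the table, which counts from the 3′ end cannot tell apart. Among all 32851 windows of this length, 16.6% held ACGTG, 7.02% TTCNNNGAA and 6.25% TAATCC, and a match is a description of the letters, not of binding.

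**Figure D1:**
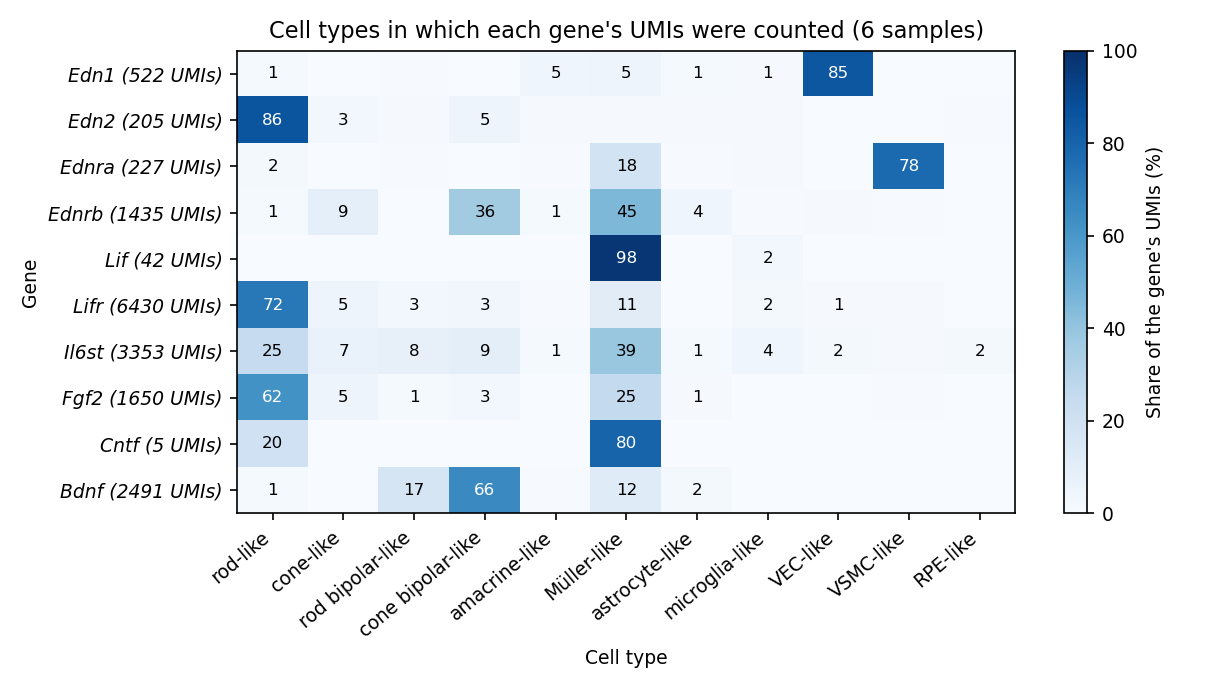
Share of each gene's UMIs counted in each cell type (columns), over all 6 samples, with the gene's total UMIs in kept cells beside its symbol (rows). Numbers are percent, shown from 1% upward. Edn2 was counted mostly in rod-like cells, Lif in Müller-like cells, Edn1 in VEC-like cells and Ednra in VSMC-like cells.

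The ligands and receptors were counted in different cell types. Because clusters were formed from the same counts, these levels are a description without a test. Edn1, the endothelin that endothelial cells secrete to constrict vessels, had 444 of its 522 UMIs in the 198 VEC-like cells. Of these cells 47.5% held at least 1. Totals here count kept cells only. Over all deposited barcodes Edn1 had 1406 UMIs and Ednra 430. Most Edn1 UMIs thus lay in barcodes that failed the filters and were given no cell type. Edn2 had 176 of its 205 UMIs in rod-like cells, which were 24916 of 38569 cells, and 0 in VEC-like and VSMC-like cells (vascular smooth muscle and pericytes). Ednra, the receptor that contracts smooth muscle, had 176 of its 227 UMIs in the 83 VSMC-like cells, 83.1% of which held it, and 42 in Müller-like cells. Ednrb, the receptor on glia and endothelium, was spread over Müller-like cells (651 UMIs of 1435), cone bipolar-like cells (517), cone-like cells (127) and the 54 astrocyte-like cells (61).

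Ednrb was found in 11.2% of Müller-like, 11.1% of cone bipolar-like and 4.21% of cone-like cells and in 0.0484% of rod bipolar-like and 0.0722% of rod-like cells. The rod bipolar-like and cone-like cells were alike in depth, with sample medians of 6411 to 10280 and 7143 to 9715.5 UMIs per cell, and the rod-like cells were shallower at 1401 to 3107. Within the cone bipolar-like cells the level ran from 55.3 CPM (counts per 1000000 UMIs of the cell type in a sample) in 1 cluster of 679 cells, whose leading genes were Gsg1, Cntn5 and Adarb2, to 2 UMIs in a cluster of 646 cells led by Gsg1, Grik1 and Otor. The 3 genes whose level was most like that of Ednrb were Ptprg (Pearson r 0.78), Apba2 (0.78) and Mast4 (0.72), over 48 sums of a sample and cell type on the log2(CPM + 1) scale. These sums share libraries and differ in depth, so the correlations describe the sums only.

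Lif had 41 of its 42 UMIs in Müller-like cells, in 0.85% of them, and 39 of these lay in the deepest Müller-like cluster of 2092 cells. In rod-like cells it had 0 UMIs. Cntf, a cytokine of glia, had 5 UMIs in all, 4 of them in Müller-like cells, too few for any comparison. Cntf also shares exons on its own strand with Zfp91, so its reads could be assigned to that gene. Lifr and Il6st, the chains that bind LIF, had UMIs in every named cell type, a spread that RNA from other cells can also give. The rod markers summed to 6177 to 20599 CPM in Müller-like cells against 46379 to 61086 CPM in rod-like cells, and Lifr was at 41.6 CPM in a shallow Müller-like cluster of 2154 cells and 22.1 CPM in the deepest one. How much of the Lifr counted there came from rods was not tested. Lifr had 72.0% of its UMIs in rod-like cells, at 61.4 to 104 CPM per sample, above the 20 to 41.7 CPM of Müller-like cells. Il6st was the reverse, at 14.2 to 16.1 CPM in rod-like and 29.2 to 76.0 CPM in Müller-like cells. Genes most like Lif were Gm9889, Lcat and Hepacam (each r 0.91), measured over 42 UMIs.

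Fgf2 had 62.4% of its UMIs in rod-like and 25.4% in Müller-like cells. Bdnf, the neurotrophin that binds Ntrk2, had 65.6% of its UMIs in cone bipolar-like, 16.8% in rod bipolar-like and 11.9% in Müller-like cells, and 0.124% of rod-like cells held it against 30.1% of cone bipolar-like cells. The receptors of these factors were each highest in some of the cell types tested. Fgfr1 was at 81.7 to 140 CPM in Müller-like cells and 37.1 to 138 CPM in RPE-like cells, and at no more than 3.14 CPM in any sample of rod-like, cone-like or bipolar-like cells. Cntfr, the CNTF receptor, was at 74 to 247 CPM in Müller-like, 25.1 to 42 CPM in cone bipolar-like and 8.18 to 60.5 CPM in amacrine-like cells. Ntrk2 was at 131 to 168 CPM in cone bipolar-like and 126 to 177 CPM in rod bipolar-like cells, where Bdnf was also counted, and at 68.6 to 239 CPM in RPE-like and 36.8 to 126 CPM in amacrine-like cells. The genes most like Edn2 were Gchfr (r 0.63), Ubxn10 (0.60) and Lrrc56 (0.58), and those most like Fgf2 were Ttc21a (0.72), Drc3 (0.71) and Kirrel (0.71).

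OIR was then compared with Ctrl within each cell type, by edgeR's quasi-likelihood test on UMIs summed per sample, fitted on all genes, with Benjamini-Hochberg adjustment. A call needed an adjusted p below 0.05 and a change of 0.25 or more on the log2 scale, in either direction. Of 80 combinations of a gene and a cell type, 64 had a UMI and were fitted, and 21 passed the filter on low counts. Bdnf fell in rod bipolar-like cells and Ednrb rose in cone-like cells, so 2 of 64 were called, against 1.59% of all genes and cell types fitted. Both calls were among the 21 that passed the filter. Genes other than the members were fitted only where they passed it, so the share is closer in kind to these 21. Over all cells, samples of the same replicate number deviated together, though numbers 2 and 3 only slightly more than with another number. The value with the replicate number as a block is given where it changes a call, and such calls rest on this pairing. With the block Lifr was also lower in rod-like cells and Bdnf also lower in cone bipolar-like cells.

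**Figure D2:**
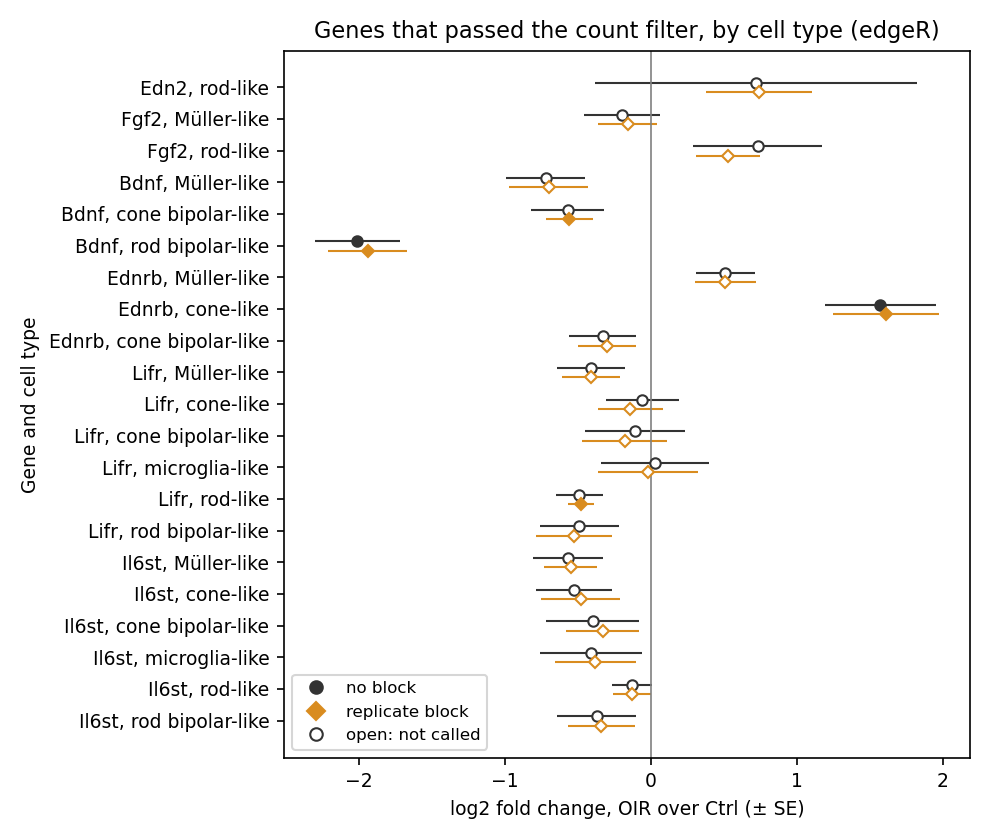
Log2 fold change of OIR over Ctrl (horizontal axis, bars are the standard error) for the 21 combinations of gene and cell type that passed the count filter. Circles are the fit without and diamonds the fit with the replicate block, and filled symbols were called. Bdnf in rod bipolar-like cells lies at -2.01 and Ednrb in cone-like cells at 1.57.

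Bdnf in rod bipolar-like cells, the interneurons that receive rod input, showed the largest of these changes. It was at 15.2, 8.07 and 8.82 CPM in OIR replicates 1 to 3 and at 34.2, 60.7 and 51.6 CPM in Ctrl replicates 1 to 3, from 73, 14 and 13 UMIs against 189, 78 and 51. The highest OIR sample lay below the lowest Ctrl sample, as in 7.73% of genes tested in these cells. Its log2 fold change was -2.01 (SE 0.29, n = 3 and 3, edgeR adjusted p = 0.00166), that is 4.02-fold lower in OIR, where 1.18% of the genes tested in these cells were called lower. With the replicate block the adjusted p was 0.000157 (3.29% of genes called lower). It was called under each of the 14 other settings, with log2 fold changes between -2.79 and -1.59. The smallest in size, -1.59 (edgeR adjusted p = 0.0071), came with a term for samples with Xist RNA. Those samples, Ctrl replicates 2 and 3, had the highest Bdnf. No OIR sample had high Xist RNA, so sex and group cannot be fully told apart. The share of rod bipolar-like cells with a Bdnf UMI was 11.3%, 5.43% and 6.37% in OIR and 16.9%, 32.9% and 22.6% in Ctrl, and 1.58%, 0.568% and 0% against 2.68%, 6.10% and 5.73% when each cell was thinned to 1000 UMIs. The groups did not overlap in either set of shares, with a two-sided exact permutation p = 0.1, the lowest that 3 against 3 can give (adjusted over 23 shares 0.575 as counted and 0.894 thinned).

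The summed rod bipolar markers overlapped between the groups in these cells. They were at 9113 to 9872 CPM in OIR and 8412 to 10846 CPM in Ctrl, with 2 of 6 markers higher in OIR. The cone bipolar markers, from the cells where Bdnf was highest, summed to 138 to 257 CPM in OIR and 141 to 169 CPM in Ctrl within the rod bipolar-like cells. The summed astrocyte markers were higher there in OIR, at 213 to 366 CPM against 92.1 to 109 CPM (3 of 5 higher, Pax2 at 0). Gfap gave at most 2.3 CPM of this sum in any sample, and Slc1a3 is also in the Müller list. The summed Müller markers overlapped, at 211 to 337 CPM against 88.1 to 259 CPM (8 of 9 higher). The summed horizontal cell markers were higher, at 69.4 to 84.8 CPM against 61.4 to 66.9 CPM (2 of 5 higher, Onecut1 and Lhx1 at 0). The part of any of these sums in the fall of Bdnf was not tested. Ntrk2, the receptor of BDNF, had a log2 fold change of -0.17 (SE 0.14, edgeR adjusted p = 0.65) in the same cells. Bdnf overlaps the antisense gene Gm45346, and how strand was used in counting is not given in the sources used here.

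**Figure D3:**
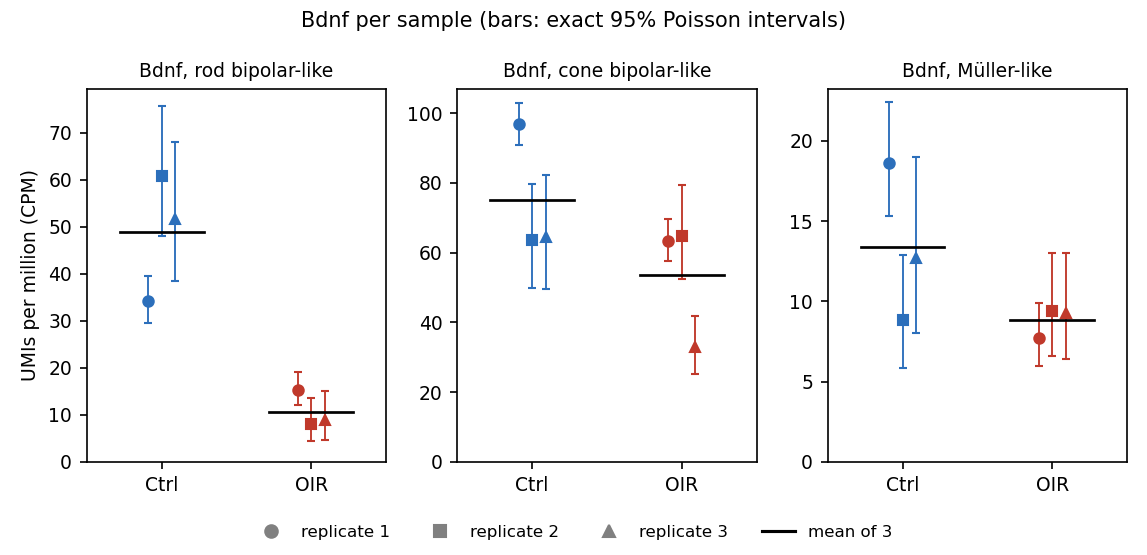
Bdnf in CPM (vertical axes, each starting at 0) for the 3 Ctrl and 3 OIR samples in rod bipolar-like, cone bipolar-like and Müller-like cells. Bars are exact 95% Poisson intervals of 1 sample and lines are means of 3. The groups are apart in rod bipolar-like cells and overlap in the other cell types.

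In cone bipolar-like cells Bdnf was at 63.4, 64.8 and 32.8 CPM in OIR and 96.9, 63.5 and 64.4 CPM in Ctrl. OIR replicate 2 lay above 2 of the Ctrl samples. The log2 fold change was -0.57 (SE 0.25, edgeR adjusted p = 0.381), and with the replicate block it was -0.56 (SE 0.16, edgeR adjusted p = 0.0388), where 2.65% of genes were called lower. The summed rod bipolar markers were also lower in these cells, at 656 to 688 CPM in OIR against 738 to 758 CPM in Ctrl (2 of 6 higher), as were the ganglion cell markers, at 7.94 to 9.73 CPM against 16.1 to 24 CPM (3 of 7 higher), and their part in this value was not tested. In Müller-like cells it was 7.74, 9.41 and 9.28 CPM against 18.6, 8.86 and 12.7 CPM, with a log2 fold change of -0.72 (SE 0.27, edgeR adjusted p = 0.262). The fall in rod bipolar-like cells was compared with that in cone bipolar-like cells after both had been seen. In a joint fit of both classes the difference of the log2 fold changes was 1.28 (SE 0.30, edgeR adjusted p = 0.0214), and 1.33% of genes tested passed in this pair. Without OIR replicate 2 the adjusted p was 0.185 and without Ctrl replicate 2 it was 0.0561.

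Ednrb in cone-like cells was at 15.9, 15.2 and 12.1 CPM in OIR replicates 1 to 3 and at 2.88, 8.82 and 4.83 CPM in Ctrl replicates 1 to 3, from 46, 29 and 18 UMIs against 16, 15 and 3. Every OIR sample was above every Ctrl sample, as in 11% of genes tested in these cells. The Poisson intervals of Ctrl replicates 2 (4.93 to 14.5 CPM) and 3 (0.996 to 14.1 CPM) still overlapped those of all 3 OIR samples. The OIR intervals were 11.6 to 21.2, 10.2 to 21.8 and 7.19 to 19.2 CPM for replicates 1 to 3. Only the interval of Ctrl replicate 1 (1.64 to 4.67 CPM) lay clear of them. The log2 fold change of Ednrb was 1.57 (SE 0.38, edgeR adjusted p = 0.0486), 2.96-fold higher, where 0.766% of genes tested in cone-like cells were called higher. With the replicate block the adjusted p was 0.00209 (2.46% called higher). The share of cone-like cells with an Ednrb UMI was 7.59%, 8.25% and 6.6% in OIR and 1.47%, 3.31% and 2.17% in Ctrl (two-sided exact permutation p = 0.1, the lowest possible, adjusted over 23 shares 0.575). Thinned to 1000 UMIs the shares were 1.69%, 1.55% and 0% against 0.248%, 1.66% and 0%, and the groups overlapped.

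The call for Ednrb depended on single libraries. It was lost without any 1 sample other than Ctrl replicate 2, with the adjusted p between 0.0858 and 0.293, and without Ctrl replicate 1 the log2 fold change was 0.89. The summed Müller markers were also higher in the cone-like cells of OIR, at 361 to 522 CPM against 292 to 311 CPM, with 7 of 9 markers higher and all 9 detected, and the summed rod bipolar markers were lower, at 74.3 to 118 CPM against 151 to 195 CPM. The summed horizontal cell markers were higher, at 25.2 to 32.4 CPM against 17.6 to 22.5 CPM (5 of 5 higher). The part of any of these sums in this result was not tested. The astrocyte markers overlapped, at 88.3 to 136 CPM against 99.9 to 176 CPM, with Pax2 at 0.

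**Figure D4:**
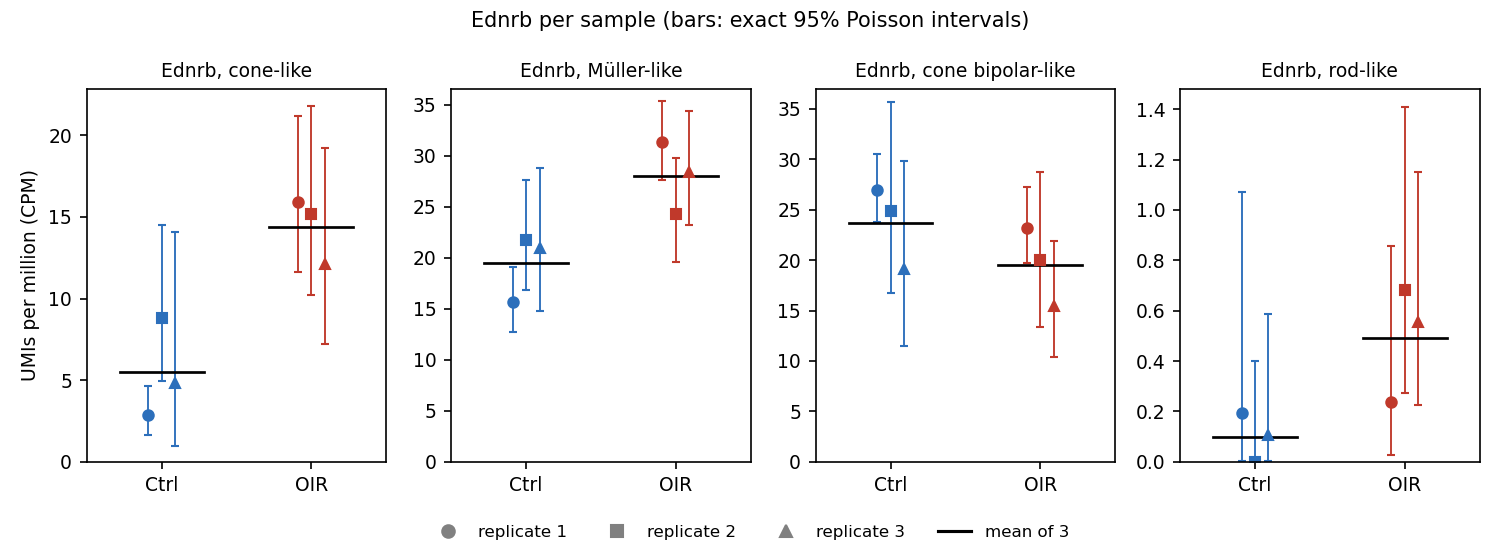
Ednrb in CPM (vertical axes, each starting at 0 with its own scale) for the 3 Ctrl and 3 OIR samples in cone-like, Müller-like, cone bipolar-like and rod-like cells. Bars are exact 95% Poisson intervals of 1 sample and lines are means of 3. OIR samples lie above Ctrl samples in cone-like, Müller-like and rod-like cells. The levels in rod-like cells reach at most 0.683 CPM, from 16 UMIs in OIR and 2 in Ctrl. In rod-like cells 23.2% of genes tested lay apart in this direction.

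In Müller-like cells Ednrb was at 31.3, 24.3 and 28.4 CPM in OIR and 15.7, 21.7 and 21.0 CPM in Ctrl. The groups did not overlap, which held for OIR above Ctrl in 13.9% of all genes tested there. Its log2 fold change was 0.51 (SE 0.20) and was not called (edgeR adjusted p = 0.276). The summed VEC markers in these cells were 976 to 1121 CPM in OIR and 834 to 972 CPM in Ctrl (5 of 9 higher). The horizontal cell markers were higher too, at 96.7 to 107 CPM against 74.2 to 83.3 CPM (4 of 5 higher). The ganglion cell markers were lower, at 22.9 to 30.3 CPM against 32.2 to 44.2 CPM (0 of 7 higher). The part of any of these sums in the Ednrb value was not tested. In the deepest Müller-like cluster alone, a choice made after the data were seen, the log2 fold change of Ednrb was 0.58 (edgeR adjusted p = 0.258). In cone bipolar-like cells the direction was the other, with 23.2, 20 and 15.4 CPM in OIR against 27.0, 24.9 and 19.1 CPM in Ctrl and a log2 fold change of -0.33 (SE 0.23, adjusted p = 0.618). The responses of Müller-like and cone-like cells differed by -1.02 (SE 0.35, edgeR adjusted p = 0.202, where 0.952% of genes passed), so a difference between them was not shown.

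Neither Edn2 nor Fgf2, the ligands with most of their UMIs in rod-like cells, was called there. Edn2 was at 10.1, 3.41 and 0.477 CPM in OIR replicates 1 to 3 and 7.12, 0.976 and 0.420 CPM in Ctrl replicates 1 to 3, from 176 UMIs. The OIR sample was the higher of its number in 3 of 3 pairs, although number 3 had only 6 UMIs in OIR against 4 in Ctrl. The same held for at least 23.2% of genes tested in rod-like cells, those with every OIR sample above every Ctrl sample. For Edn2, both replicate 1 samples were far above both replicate 3 samples. OIR over Ctrl gave a log2 fold change of 0.72 (SE 1.10, edgeR adjusted p = 0.785), and 0.74 (SE 0.36, adjusted p = 0.209) with the replicate block. The interval of the unblocked estimate ran from -1.44 to 2.89, which takes in both directions, and without OIR replicate 1 it was -0.60.

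Fgf2 in rod-like cells was at 43.6, 19.5 and 11.7 CPM in OIR and 16.6, 13.1 and 11.4 CPM in Ctrl. OIR replicate 1 stood far above the other 5 samples, and OIR replicate 3 was below Ctrl replicates 1 and 2. The OIR sample was the higher of its number in 3 of 3 pairs, as in at least 23.2% of genes tested there. OIR over Ctrl gave a log2 fold change of 0.73 (SE 0.44, edgeR adjusted p = 0.425), it was 0.53 with the replicate block (adjusted p = 0.153), and it was 0.00 without OIR replicate 1. In Müller-like cells, at 17, 13.1 and 12 CPM against 20.8, 13.5 and 11 CPM, the log2 fold change was -0.20 (SE 0.26, adjusted p = 0.802). The responses of rod-like and Müller-like cells differed by 0.85 (SE 0.31, adjusted p = 0.273, where 1.35% of genes passed). In the pairs of rod-like with cone-like, rod bipolar-like and cone bipolar-like cells, 1.28%, 1.5% and 1.22% of genes passed and no member did. Exons of Fgf2 overlap Nudt6 on the opposite strand.

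**Figure D5:**
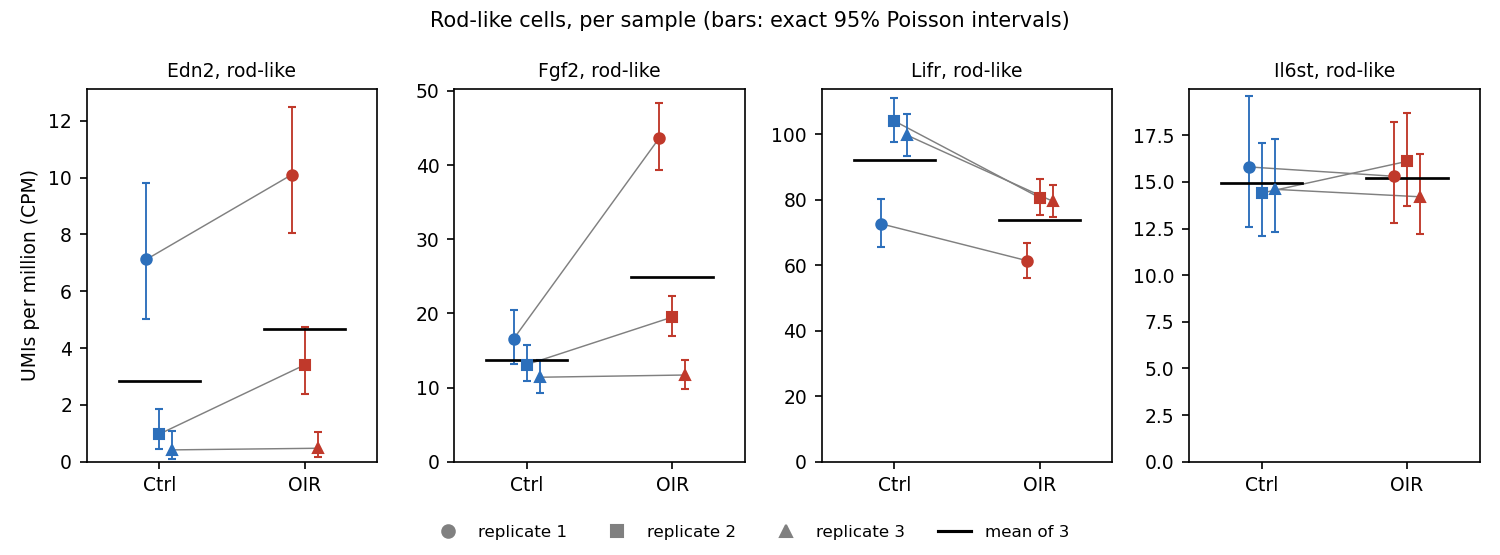
Edn2, Fgf2, Lifr and Il6st in rod-like cells, in CPM (vertical axes, each starting at 0 with its own scale), for the 3 Ctrl and 3 OIR samples. Grey lines join samples of the same replicate number, bars are exact 95% Poisson intervals of 1 sample and black lines are means of 3. Edn2 and Fgf2 are higher in OIR and Lifr lower in OIR in each of the 3 joined pairs. Of genes tested in these cells, at least 23.2% were higher and at least 4.77% lower in every pair. The pair of number 3 is nearly level for Edn2 (0.477 against 0.420 CPM) and Fgf2 (11.7 against 11.4 CPM).

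Lifr in rod-like cells was at 61.4, 80.6 and 79.5 CPM in OIR and 72.6, 104 and 99.6 CPM in Ctrl. It was lower in OIR in 3 of 3 pairs, as in at least 4.77% of genes tested there, although the groups overlapped. The log2 fold change was -0.49 (SE 0.16, edgeR adjusted p = 0.138). With the replicate block it was -0.48 (SE 0.09, edgeR adjusted p = 0.00968) and was called. With this block 5.83% of genes tested in rod-like cells were called lower. Over the 15 other settings the log2 fold change of Lifr lay between -0.63 and -0.13. Ctrl replicates 2 and 3, the samples with high Xist RNA, had the highest Lifr, and Ctrl replicate 1 lay within the OIR range. No OIR sample had high Xist RNA, so sex and group cannot be fully told apart here. The summed rod markers were lower in the rod-like cells of OIR too, at 46379 to 53350 CPM against 55398 to 61086 CPM, with 2 of 9 markers higher. The summed horizontal cell markers were higher, at 26 to 26.9 CPM against 17.6 to 23.9 CPM (4 of 5 higher). The part of either sum in this result was not tested. The other combinations of Lifr with a cell type that passed the filter had log2 fold changes between -0.49 and 0.03, none called.

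Il6st passed the filter in 6 cell types and was called in none, with edgeR adjusted p between 0.317 and 0.787. In Müller-like cells it was at 42.3, 45.8 and 29.2 CPM in OIR and 76.0, 45.9 and 43.6 CPM in Ctrl. Its log2 fold change there was -0.57 (SE 0.24, adjusted p = 0.317), and -0.55 (adjusted p = 0.141) with the block. In cone-like cells it was at 15.9, 11 and 10.1 CPM against 18.0, 17.6 and 17.7 CPM, and although the groups did not overlap, as in 5.82% of genes tested there with OIR lower, the log2 fold change of -0.53 (SE 0.26) was not called (adjusted p = 0.459). Lif in Müller-like cells had 17, 4 and 5 UMIs in OIR and 10, 2 and 3 in Ctrl, at 1.05 to 2.09 CPM against 0.656 to 1.66 CPM. The log2 fold change was 0.20 (95% interval -0.83 to 1.23, edgeR adjusted p = 0.917), and no change was called.

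The vascular members could not be tested. VEC-like cells numbered 3 to 25 in the OIR and 4 to 144 in the Ctrl samples, and Edn1 was at 33.9, 480 and 0 CPM in OIR against 348, 573 and 145 CPM in Ctrl, from 7, 5 and 0 UMIs against 391, 33 and 8. The groups overlapped, with OIR replicate 2 above 2 of the Ctrl samples. Ednra in VSMC-like cells, of which the OIR samples held 5, 2 and 3, was at 184, 122 and 59.0 CPM in OIR and 233, 357 and 298 CPM in Ctrl. The highest OIR sample was below the lowest Ctrl sample, but its interval, from 103 to 303 CPM, took in the values of Ctrl replicates 1 and 3. How many other genes lay apart in VSMC-like cells was not counted, as these cells were not tested. In Müller-like cells Edn1 had 25 UMIs, at 0 to 0.614 CPM in OIR and 0.985 to 2.14 CPM in Ctrl, with an edgeR adjusted p of 0.28. These groups did not overlap, as in 6% of genes tested there with OIR lower.

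Among 52 further genes of these pathways, 1 rose and 1 fell in a cell type, over 127 tests of a gene in a cell type. Of all genes and cell types fitted, 1.59% were called in either direction, a similar share. Fgf13, an intracellular member of the FGF family, fell in Müller-like cells, at 32.4, 31.1 and 31.1 CPM in OIR against 45.3, 61.0 and 66.8 CPM in Ctrl (log2 fold change -0.91, SE 0.18, edgeR adjusted p = 0.0366), where 0.711% of genes were called lower. Cebpd, a transcription factor that cytokines induce, rose in rod bipolar-like cells, at 11.9, 16.7 and 23.1 CPM in OIR against 6.52, 3.11 and 3.04 CPM in Ctrl (log2 fold change 1.61, SE 0.36, edgeR adjusted p = 0.0288), where 1.27% were called higher. The summed astrocyte and horizontal cell markers given above for these cells were higher in OIR too, and the Müller sums overlapped. The part of any of these sums in the rise of Cebpd was not tested. Where 1 sample was left out, Fgf13 kept its call without Ctrl replicate 1 only, and Cebpd without OIR replicate 1 or Ctrl replicate 1 only. The 9 genes of the glial STAT3 response, of which 7 were tested in Müller-like cells, had no call by edgeR there (3 with the replicate block). Their median log2 fold change was 1.14, against a median of 0 over all 11809 genes tested. The lists were written with earlier results of these data known, so their medians are a description and no test. The median of this list was 0.97 in rod-like (4 tested), 0.99 in rod bipolar-like (2), 0.48 in cone-like (4), 0.32 in cone bipolar-like (2), 0.01 in microglia-like (3) and -0.79 in RPE-like cells (1). The other 4 lists (endothelin, gp130 cytokine, FGF and neurotrophin genes) had medians between -0.34 and 0.35 in the rod-like, cone-like, Müller-like and both bipolar-like classes. In microglia-like, amacrine-like and RPE-like cells, with at most 5 genes of a list tested, they were further apart. They ran there from -0.90 (FGF genes, RPE-like, 2 tested) to 0.97 (neurotrophin genes, amacrine-like, 2 tested).

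Several receptors and targets in Müller-like cells were called with the replicate block alone. In these cells numbers 2 and 3 deviated less with their own number (r 0.0197 and 0.175) than with another (0.0677 and 0.257). The block calls rest on a pairing that these cells show for number 1 only. Gfap, the filament of reactive glia, was at 33.0, 18.3 and 4.64 CPM in OIR and 16.5, 2.30 and 2.76 CPM in Ctrl. It was higher in OIR in 3 of 3 pairs, as in at least 13.9% of genes tested in these cells. Its log2 fold change was 1.14 (SE 0.71, edgeR adjusted p = 0.531), and 1.43 with the block (adjusted p = 0.0408), and it ran from 0.35 without OIR replicate 1 to 2.91 without Ctrl replicate 1. Osmr, a receptor that pairs with gp130, was at 36.6, 19.3 and 18.6 CPM against 14.2, 7.88 and 9.93 CPM, and the groups did not overlap, as in 13.9% of genes tested there with OIR higher. Its log2 fold change was 1.15 (SE 0.33, adjusted p = 0.126), 1.18 with the block (adjusted p = 0.0113) and 0.67 without OIR replicate 1. The log2 fold changes of Socs3, the feedback inhibitor that STAT3 induces, were 0.31 (adjusted p = 0.721) in Müller-like cells and 0.50 (adjusted p = 0.296) in cone-like cells, and with the block 0.54 (adjusted p = 0.0496) in the latter. Those of Cntfr and Fgfr1 in Müller-like cells were -0.81 (adjusted p = 0.305) and 0.11 (adjusted p = 0.868), called in neither fit. Ntrk2 in Müller-like cells had 0.35 (adjusted p = 0.837). With the block 5 genes of these lists were called higher and 2 lower in Müller-like cells, where 2.1% of genes were called higher and 1.38% lower.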

How the data were processed

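Retinal cells of 6 mouse samples (3 OIR, 3 Ctrl, 2 mice each) were profiled with 10x Genomics 3′ chemistry. The authors deposited raw UMI counts per gene and barcode for each sample, with no normalization. The submitters' processing notes name mm10, while the study's methods name a human build, and the deposited gene IDs are those of mouse. The matrix headers name software version 3.1.0. How strand was counted is not given in the sources used here. Total counts were 15788524 to 42606878 UMIs per sample, and every barcode held at least 500.

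Cells with 500 to 5000 genes and at most 20% mitochondrial counts were kept, as the study states. Doublets were neither called nor removed. The 2 groups were integrated and clustered in Seurat 5.3.0 (2000 variable genes, 15 components, resolution 0.5), giving 23 clusters named from marker lists. UMIs were summed per sample and cell type and tested in edgeR 4.0.16 (R 4.3.3) with TMM scaling and filterByExpr, keeping members that failed the filter in the fit. Fold changes are on the TMM scale, and CPM scales UMIs to 1000000 of the cell type in a sample. Intervals of a sample's value are exact 95% Poisson intervals and cover counting error only. Shares of cells were compared by exact permutation tests, as counted and thinned to 1000 UMIs, for members with at least 50 UMIs in the cell type. Differences between cell types were tested as interaction terms with the sample as a block. On counts simulated for rod bipolar-like cells (9330 genes), 69% of 2-fold and 93.5% of 4-fold changes were recovered, and for cone-like cells (9396 genes) 68% and 93%. For rod-like cells (11481 genes) these shares were 54% and 94.5%, and for Müller-like cells (11804 genes) 49.5% and 95.5%. Of the calls in these simulations 4.81% to 9.24% were false, with 8% and 7.43% in rod bipolar-like cells. The changed genes were drawn at random and not at the counts of the members.

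Samples of the same replicate number deviated from their group means together over all cells (r 0.67, 0.298 and 0.506 for numbers 1 to 3). The highest r with a Ctrl sample of another number was -0.501, 0.231 and 0.397, so numbers 2 and 3 were only slightly closer to their own number. The numbers were taken to pair the samples, and calls made with the block alone rest on this. This pairing comes from the data, as the labels give only the number. Within Müller-like, rod bipolar-like, cone-like, microglia-like, amacrine-like and RPE-like cells not every number reached 0.1. In Müller-like cells numbers 2 and 3 (r 0.0197 and 0.175) were closer to a sample of another number (0.0677 and 0.257). The same held for some numbers in cone-like, microglia-like and amacrine-like cells.

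The members and the pathway and marker lists were chosen with earlier results of these data known. Named besides the members were called pathway genes (at most 4 per list and cell type by lowest p), Cntfr, Osmr, Ntrk2, Fgfr1, Socs3 and Gfap in any case, and the 3 genes most correlated with Edn2, Ednrb, Lif and Fgf2. Alternatives were DESeq2 1.42.0, no count filter, each sample left out, the replicate block, a term for samples with Xist RNA, replicates 2 and 3 alone, cells with at least 1000 UMIs, a mitochondrial limit of 10%, and clusters without integration (scanpy 1.11.5). Upstream sequences are from RefSeq (GRCm38.p6), all 10 members matching by symbol.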

Additional observations from a re-analysis of the deposited data

Results flagged for a closer look

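The response of Bdnf to OIR differed between the bipolar classes by a test of the difference itself. The log2 fold change was -0.57 in cone bipolar-like and -2.01 in rod bipolar-like cells when each was fitted alone, and a joint fit of both classes with the sample as a block gave a difference of 1.28 (SE 0.30, 95% interval 0.70 to 1.87, edgeR adjusted p = 0.0214), where 1.33% of the genes tested in this pair passed. The pair was added after the Bdnf values in both classes had been seen. Without 1 sample the difference lay between 1.00 and 2.04, and it did not pass without OIR replicate 2 (1.08, adjusted p = 0.185) or without Ctrl replicate 2 (1.00, adjusted p = 0.0561). In the other 5 pairs of cell types tested, 0 of 19 tests of a member passed in edgeR, and the lowest adjusted p was 0.202. Of these tests 4 had an unadjusted edgeR p under 0.05, and the share of all genes at that cut was not counted in these pairs.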

How the results depend on the processing

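Of the member and cell type combinations, 1 was called higher and 1 lower. The number called higher was 0 with DESeq2, with replicates 2 and 3 alone and with a mitochondrial limit of 10%, and 0 to 1 when 1 sample was left out. The number called lower was 2 without the count filter, 2 with the Xist term, 2 with replicates 2 and 3 alone, 3 with the replicate block and 1 to 2 when 1 sample was left out, the 2 arising without Ctrl replicate 1. Bdnf in rod bipolar-like cells was called under all 14 alternatives. Ednrb in cone-like cells had 1.45 with DESeq2 (adjusted p = 0.158), 0.76 with replicates 2 and 3 alone (edgeR adjusted p = 0.379) and 1.10 with the mitochondrial limit of 10% (0.141). The added calls of Bdnf were in cone bipolar-like cells, without the filter (-0.58) and with the Xist term (-0.90). Those of Lifr were in rod-like cells, without Ctrl replicate 1 (-0.63) and with replicates 2 and 3 alone (-0.54). In these settings of Lifr the Ctrl samples left were those with high Xist RNA, and no OIR sample had it. Sex and group cannot be told apart wherever Ctrl replicate 1 was left out. The replicate block added the calls of Lifr and Bdnf given with the results and changed no other call of a member.

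Directions turned for Edn2 in rod-like cells without OIR replicate 1 (-0.60, in a range of -0.60 to 2.53 when 1 sample was left out) and with the Xist term (-0.80), and for Fgf2 in Müller-like cells without Ctrl replicate 1 (0.13, in a range of -0.44 to 0.13). Pathway genes called higher numbered 5 with DESeq2, 11 with the replicate block and 0 to 5 when 1 sample was left out, and those called lower numbered 2, 6 and 0 to 5, both 5 without Ctrl replicate 1. Calls over all genes rose with the block too, from 2.7% to 12% in rod-like and 1.91% to 3.48% in Müller-like cells. They rose from 2.45% to 6.81% in rod bipolar-like and 1.21% to 4.22% in cone-like cells. DESeq2 called 646 of 11486 genes in rod-like cells against 310 by edgeR, and 95 against 114 in cone-like cells. The share over all genes with 1 sample left out was not counted. Differences between cell types past the threshold numbered 2 without the filter and 0 to 1 when 1 sample was left out, the 1 without Ctrl replicate 1, and that of Bdnf between bipolar classes ran from 1.00 to 2.04. Of 23 shares, 1 reached the lowest p at 1000 UMIs, 4 as counted and 3 at 500 UMIs. The cause of these changes was not tested. Few counts limited Cntf and Lif, and few kept cells limited Edn1 and Ednra.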
